A study of Mus musculus with 4 samples.

Results

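The genes described here belong to the system that cuts and remodels the matrix outside the cell: 3 tissue inhibitors of metalloproteinases (Timp1, Timp2 and Timp3), 4 matrix metalloproteinases (Mmp2, Mmp3, Mmp9 and Mmp14), and the urokinase plasminogen activator Plau with its receptor Plaur. They were taken by name, and all 9 were found among the 26561 gene rows of the count table. The libraries came from MC38, a transplantable mouse colon cancer cell line, labelled as epithelial and wild type, with no other allele or agent named. Messenger RNA was sequenced from 2 libraries of unirradiated cells (0 Gy) and from 2 libraries of cells that had received 30 Gy of X-rays in 1 fraction, collected 60 h later. The labels give no collection time for the unirradiated cells and do not say whether libraries of a group are separate cultures. How long and how densely the cells had grown cannot be told apart from the radiation itself. If libraries of a group share a culture, the spread behind every p-value is technical.

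Matrix metalloproteinases are zinc enzymes made as inactive proenzymes, which together can cut most proteins of the extracellular matrix. MMP14 sits in the cell membrane, and a complex of MMP14 with TIMP2 binds the proenzyme of MMP2, a gelatinase, so that a free neighbouring MMP14 can activate it. TIMPs block the active enzymes by binding their catalytic site. In a second branch, urokinase bound to its receptor turns plasminogen into plasmin, which digests fibrin and matrix proteins and can activate several proenzymes of the metalloproteinases. Both branches are studied in tumours for their part in invasion, and matrix proteases and TIMPs are among the proteins that senescent cells can secrete.

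Irradiated cells held more transcript of the gelatinases and of MMP14 and less of Timp1 and Plaur. Of the 8 genes that could be tested, 5 rose (Timp2, Mmp2, Mmp9, Mmp14 and Plau), 2 fell (Timp1 and Plaur), Timp3 did not pass, and Mmp3 had too few reads to test. A gene rose or fell here where edgeR's quasi-likelihood test gave a Benjamini-Hochberg adjusted p under 0.05. Calls were common in these data: 60.7% of 15298 tested genes passed, 30.4% higher and 30.3% lower, so 7 called of 8 is to be read against that share. The median absolute log2 fold change of all tested genes was 0.39, and 6 of the 8 genes, all except Timp2 and Timp3, lay beyond it. In all 9 genes the libraries of the groups did not overlap, which with 2 libraries per group is weak evidence. Timp3, which did not pass, and Mmp3, with too few reads to test, showed it too. The share of all genes without overlap was not computed, so this count is not read as a trait of these 9 genes.

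Total counts ran from 26059171 to 29881492 per library. The label "epithelial" is only partly borne out by transcripts: of 12 epithelial markers 3 had enough reads to test, with Cdh1, which encodes E-cadherin, the highest (35.4 ± 1.24 CPM in unirradiated and 70.4 ± 3.72 CPM in irradiated cells; SD, n = 2), while Epcam had 0, 0, 0 and 1 counts. The 9 fibroblast markers summed to 1205 and 1201 CPM in unirradiated and to 1780 and 1799 CPM in irradiated libraries. Most of that was Col1a2, a type I collagen chain and the highest of them, and Col3a1 (749 and 350 CPM in unirradiated cells, group means). Of the 9, 7 had enough reads to test. Thy1 (0, 0, 2 and 1 counts) and Lum (6, 0, 0 and 0) did not, and Postn had 2 and 2 counts in unirradiated cells. CPM are counts per 1000000 of the scaled library. In bulk RNA, fewer cells that express a gene and less of its RNA per cell cannot be told apart.

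**Figure D1:**
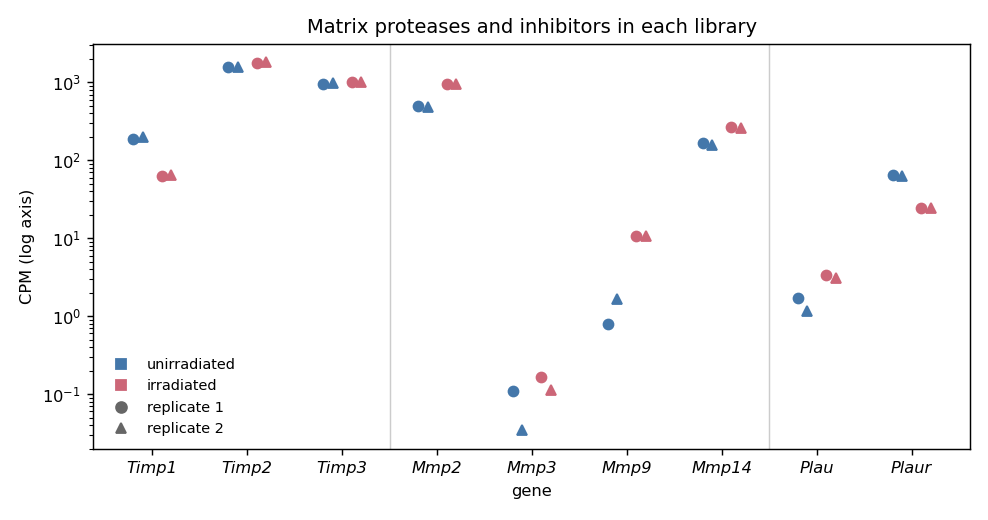
CPM (vertical log axis) of the 9 genes in each of the 4 libraries; colour marks the group, circles replicate 1 and triangles replicate 2. Timp1 and Plaur lie lower in both irradiated libraries, Mmp2, Mmp9, Mmp14 and Plau higher, and Timp2 and Timp3 nearly level on this axis.

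The stretches before the start sites of 3 of these genes are shown because they stand for both directions of change: Timp1 and Plaur, which fell, and Mmp14, which rose. Each is the 250 bases upstream of the RefSeq start site (GRCm38.p6, plus strand, 5′ to 3′): chrX:20869916-20870165 for Timp1, chr7:24462233-24462482 for Plaur and chr14:54431348-54431597 for Mmp14. Capitals mark matches to the motif of AP-1 (TGANTCA), the FOS and JUN dimer, and to a motif of the PEA3 group of ETS factors (AGGAAG). Both strands were searched, and no matches overlapped each other.
Timp1: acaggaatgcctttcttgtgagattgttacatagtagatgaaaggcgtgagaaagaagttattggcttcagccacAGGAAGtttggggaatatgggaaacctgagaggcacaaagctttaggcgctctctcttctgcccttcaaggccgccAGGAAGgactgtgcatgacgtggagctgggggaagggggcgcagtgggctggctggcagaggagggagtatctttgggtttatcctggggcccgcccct
Plaur: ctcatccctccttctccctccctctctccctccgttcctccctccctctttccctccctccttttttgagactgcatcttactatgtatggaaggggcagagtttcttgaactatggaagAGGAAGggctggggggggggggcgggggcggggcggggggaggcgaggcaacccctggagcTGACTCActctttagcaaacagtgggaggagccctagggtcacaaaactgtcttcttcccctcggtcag
Mmp14: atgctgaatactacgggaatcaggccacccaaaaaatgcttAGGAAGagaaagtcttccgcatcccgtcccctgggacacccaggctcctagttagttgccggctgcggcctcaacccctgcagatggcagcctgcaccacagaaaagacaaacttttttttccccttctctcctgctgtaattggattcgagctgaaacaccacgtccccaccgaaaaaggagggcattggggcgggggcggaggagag

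RefSeq promoter windows, which run from 250 bases before to 50 after the start, were found for 6 of the 9 genes, all except Mmp2, Mmp9 and Plau. AP-1 letters occurred in Plaur and Mmp3, with their first base at -69 and -46 from the start. The matches read TGACTCA in Plaur and TGAGTCA in Mmp3. Of all 32851 windows of this length 7.81% held them. The PEA3-type letters occurred in Timp1 (first bases at -175, -99 and 41, counted from the start), in Plaur (-130 and 17), and once each in Mmp14, Mmp3 and Timp3. They were present in 35.4% of all windows. The Timp2 window held neither. Its RefSeq start lies 329 bases downstream of the GENCODE gene start, so the window is not the stretch before the longest annotated transcript. A match describes letters, and no binding was measured.

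Among the inhibitors only Timp1 shifted by much. TIMP1 is a secreted inhibitor whose gene (ENSMUSG00000001131, X:20870166-20874735, GRCm38, plus strand) lies inside Syn1 without sharing exon bases with it. It had 5228 and 5804 counts in the unirradiated and 1861 and 1706 in the irradiated libraries, or 190 and 199 against 62.5 and 64.3 CPM. Both irradiated libraries lay far below both unirradiated ones. The fitted fall was 3.07-fold (log2 fold change -1.62, SE 0.05, edgeR adjusted p = 1.88e-244).

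Timp2 (ENSMUSG00000017466, 11:118301069-118355740, minus strand) encodes the inhibitor that also serves in the activation of MMP2. It had 1583 and 1563 CPM in unirradiated and 1794 and 1809 CPM in irradiated cells, which made it the highest of the 9 genes in CPM in every library. The groups did not overlap, yet the rise was small, 1.15-fold (log2 fold change 0.20, SE 0.02, edgeR adjusted p = 3.51e-19). Timp3 (ENSMUSG00000020044, 10:86300372-86349506, plus strand) encodes an inhibitor that stays bound to the matrix. Its levels were 961 and 977 CPM in unirradiated and 1002 and 999 CPM in irradiated cells, with a log2 fold change of 0.05 (SE 0.02) that did not pass (edgeR adjusted p = 0.0852). That call depends on the scaling of the libraries: adjusted p was 0.0485 with RLE factors, 2.94e-05 with library totals alone (log2 fold change 0.11) and 2.45e-06 with upper-quartile factors (0.12). Timp3 shares 1733 exon bases with Syn3 on the other strand, which had 243 counts over all libraries against 111265 for Timp3.

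Of the 4 metalloproteinases among these 9 genes, the 3 with enough reads to test all rose. Mmp2 (ENSMUSG00000031740, 8:92827291-92853420, plus strand), gelatinase A, went from 13773 and 14192 counts to 28818 and 25513, or from 501 and 486 to 968 and 961 CPM. Replicates lay close together and the groups far apart, a 1.95-fold rise (log2 fold change 0.97, SE 0.03, edgeR adjusted p = 6.83e-281). Mmp14 (ENSMUSG00000000957, 14:54431612-54445364, plus strand), the membrane-type enzyme that can activate proMMP2, had 166 and 156 CPM in unirradiated and 267 and 261 CPM in irradiated cells. Its rise was 1.64-fold (log2 fold change 0.71, SE 0.04, edgeR adjusted p = 9.91e-78). The genes of the proMMP2 activation complex, Mmp2, Mmp14 and Timp2, were thus each higher in both irradiated libraries, by unequal amounts.

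Mmp9 (ENSMUSG00000017737, 2:164940780-164955850, plus strand), gelatinase B, had the steepest rise of the 9 genes and started from few reads. Counts were 22 and 48 in the unirradiated and 316 and 284 in the irradiated libraries, or 0.801 and 1.64 against 10.6 and 10.7 CPM. The irradiated libraries were nearly equal, whereas the unirradiated ones differed from each other by a factor that sets how large the fold is. The fitted rise was 8.63-fold (log2 fold change 3.11, SE 0.23, edgeR adjusted p = 4.92e-39), and 13.2-fold without unirradiated replicate 2 (log2 fold change 3.72, adjusted p = 1.85e-31). Of the 3417 tested genes with a mean of 1 to 10 CPM, a band that holds Mmp9 and Plau, 33.3% rose.

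Leukocytes are a common source of MMP9 in tumours, and markers of them were read beside it. Of 9 macrophage markers 8 had a row, and their summed level was 10.8 and 8.80 CPM in unirradiated and 45.8 and 39.7 CPM in irradiated libraries. In irradiated cells most of that was Cd68, a lysosomal membrane protein, which rose from 4.23 ± 0.555 to 34.6 ± 4.23 CPM (SD, n = 2; edgeR adjusted p = 7.46e-122). Lyz2, a lysozyme of myeloid cells, had 0 and 2 counts in unirradiated and 23 and 20 in irradiated libraries. It passed the filter on low counts only through the irradiated libraries. Its call (edgeR adjusted p = 5.87e-05) thus adds no support beyond these counts. Cd14 went from 5.21 ± 0.821 to 6.44 ± 0.157 CPM without passing (edgeR adjusted p = 0.176). Of the others, Adgre1 had 0, 0, 0 and 2 counts, Csf1r had 1, 0, 0 and 2, Fcgr1 had 0, 2, 0 and 0, Mrc1 had 0, 0, 1 and 5, and Ptprc, the pan-leukocyte antigen CD45, had 10, 6, 24 and 17 (adjusted p = 0.0857). The 4 of 8 neutrophil markers with a row summed to 0 CPM in both unirradiated and to 0.202 and 0.414 CPM in irradiated libraries, with S100a9 the highest. The 6 endothelial markers summed to 2.58 and 1.92 against 6.42 and 6.63 CPM, mostly from Pecam1. The part of other cells in the rise of Mmp9 was not tested.

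Mmp3 (ENSMUSG00000043613, 9:7445822-7455975, plus strand), stromelysin 1, which can activate proMMP9, was barely detected. It had 3 and 1 counts in unirradiated and 5 and 3 in irradiated libraries, a ratio of 2.01 with an exact (Clopper-Pearson) 95% interval for counting error from 0.539 to 9.13. A difference was not detectable at this depth. Mmp3 was under the filter on low counts, and without the filter edgeR gave adjusted p = 0.718.

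In the plasminogen branch the activator and its receptor moved in opposite directions. Plau (ENSMUSG00000021822, 14:20836660-20843385, plus strand) had 47 and 34 counts in unirradiated and 100 and 82 in irradiated libraries, or 1.71 and 1.16 against 3.36 and 3.09 CPM. The groups did not overlap, and the rise was 2.25-fold (log2 fold change 1.17, SE 0.33, edgeR adjusted p = 8.91e-04). Plaur (ENSMUSG00000046223, 7:24462484-24475968, plus strand), the receptor that is anchored to the membrane by a lipid, had 64.3 and 62.9 CPM in unirradiated and 24.8 and 24.5 CPM in irradiated cells. Replicates differed little, and the fall was 2.58-fold (log2 fold change -1.37, SE 0.07, edgeR adjusted p = 1.52e-72). Among the 6 genes with a promoter window, AP-1 letters occurred in Plaur and also in Mmp3.

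**Figure D2:**
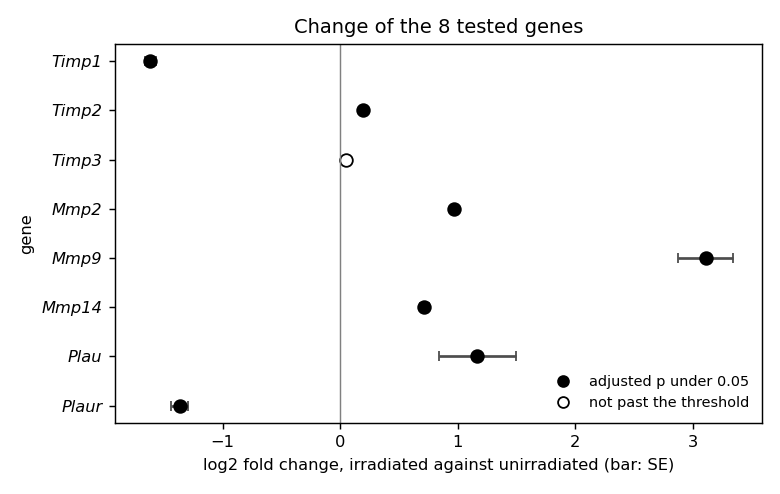
Log2 fold change (horizontal axis, irradiated against unirradiated) of the 8 tested genes, with bars of 1 standard error; filled points passed adjusted p under 0.05. Mmp9 at 3.11 and Timp1 at -1.62 are the outermost points, and Timp3 at 0.05 is the open one.

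Levels can be compared between genes only per length, so CPM were divided by the merged exon length in kilobases. On that scale the unirradiated order was Timp2 (404 CPM per kb, mean of 2 libraries), Timp1 (219), Mmp2 (146), Timp3 (119), Mmp14 (27.0), Plaur (24.3), Plau (0.607), Mmp9 (0.345) and Mmp3 (0.0398). In irradiated cells it was Timp2 (462), Mmp2 (286), Timp3 (123), Timp1 (71.4), Mmp14 (44.3), Plaur (9.41), Mmp9 (3.01), Plau (1.36) and Mmp3 (0.0780). No neighbours in either order had overlapping libraries. That spread does not cover error in the lengths, since the merged exons of a gene may exceed the transcripts that were expressed. The same limit holds for all levels, shares and ratios per length given below. Timp1 dropped from the second to the fourth place, Mmp2 took the second, and Mmp9 passed Plau.

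The make-up of the inhibitor pool changed with these shifts. Of the summed Timp1 to Timp3 level per length, Timp1 supplied 29.0% and 30.1% in unirradiated and 10.8% and 11.0% in irradiated libraries. Timp2 went from 55.0% and 53.8% to 70.4% in both. The summed level of the 4 metalloproteinases, of which Mmp2 made 84.1% to 85.9% in each library, was 0.239 and 0.229 times that of the 3 inhibitors in unirradiated cells. In irradiated cells it was 0.512 and 0.503 times. These are ratios of transcript levels given as a description, with no test, and say nothing of protein or of active enzyme.

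**Figure D3:**
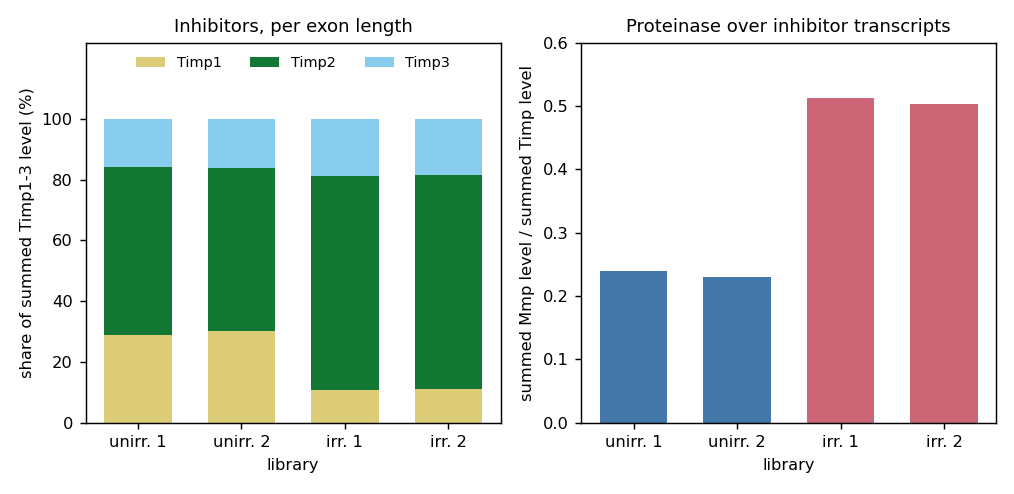
Left, share of Timp1, Timp2 and Timp3 in their summed level per exon length (%) in each library; right, summed level of Mmp2, Mmp3, Mmp9 and Mmp14 divided by that of the inhibitors, blue for unirradiated and red for irradiated libraries. The Timp1 share is 29.0% and 30.1% in unirradiated and 10.8% and 11.0% in irradiated libraries, and the ratio goes from 0.239 and 0.229 to 0.512 and 0.503.

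The genes nearest in pattern were sought by the Euclidean distance between log2(CPM + 1) profiles over the 4 libraries, each centred on its mean, among 10499 other genes with a mean of at least 5 CPM. Nearest to Mmp9 were Ccdc162 (distance 0.18; 1.14 to 10.01 CPM, group means), Plekha6 (0.25; 10.2 to 54.3 CPM) and Mgp, matrix Gla protein (0.26; 3.11 to 19.8 CPM). Nearest to Timp1 were Sema7a, a semaphorin (0.07; 12.4 to 3.24 CPM), Asns, asparagine synthetase (0.07; 244 to 82.3 CPM), and Hnrnpd, an RNA-binding protein (0.07; 241 to 83.1 CPM). With 4 libraries in 2 groups, this likeness is in the main likeness of the difference between groups.

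Around these 9 genes, 105 genes in 7 lists were read: other proteases of the same kinds, their inhibitors, cofactors and receptors, and the AP-1 and ETS factors. Of them 95 had a row and 62 could be tested; 30 rose, 18 fell and 14 did not pass, against the background of 30.4% higher and 30.3% lower. Their median log2 fold change was 0.29, and that of all tested genes 0.01. Some genes that rose, such as Spint1, Adamdec1 and Adamts13, passed the filter on low counts only through the irradiated libraries. Such genes could hardly have been called lower, so the counts and medians of the lists lean toward higher.

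Most other metalloproteinases had too few reads to test or no call. Of 19, 14 had a row and 6 could be tested, of which 1 rose and 1 fell (median -0.17); without the filter, or with DESeq2, 3 rose. Mmp19, which cuts basement membrane proteins, rose from 53 and 81 to 295 and 372 counts (5.05-fold, edgeR adjusted p = 5.12e-30). Its exons share 789 bases with Tmem198b on the other strand, which had 1821 counts against 801, and without a stated strand setting the reads cannot be told apart. Mmp11, stromelysin 3, fell 1.29-fold (67.1 ± 3.44 to 52.0 ± 2.42 CPM, SD, n = 2, edgeR adjusted p = 1.44e-08). Named after its value was seen, Mmp28 was nearly level, at 42.2 CPM in unirradiated and 41.6 CPM in irradiated cells (group means). Mmp17, Mmp23 and Mmp24 were not called, but their standard errors of 0.45 to 0.48 on the log2 scale are too wide to show a steady level.

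Of 10 other inhibitors and cofactors of these enzymes, 6 could be tested, 3 rose and 3 fell (median 0.17). With DESeq2 or without the filter, 2 rose. Hpx, named after its value was seen, had 4 and 2 counts in unirradiated and 19 and 10 in irradiated libraries. It passed the filter only through the irradiated libraries, so its call adds no support beyond these counts. Reck, a membrane-anchored inhibitor of metalloproteinases, rose 1.35-fold (edgeR adjusted p = 2.53e-04), from 481 and 434 to 653 and 575 counts. Bsg, the inducer of metalloproteinases also called EMMPRIN, rose 1.44-fold (397 ± 0.667 to 573 ± 4.65 CPM; SD, n = 2; adjusted p = 9.98e-69). Furin, the convertase that removes the propeptide of MMP14, fell 1.20-fold (adjusted p = 2.32e-06). Cd44, a receptor that can hold MMP9 at the cell surface, and Cav1, caveolin 1, fell by under 1.1-fold. Neither passed under upper-quartile scaling or with library totals alone, nor without unirradiated replicate 2 (adjusted p = 0.0809 and 0.163), which left 1 lower gene in the list. Cd44 also missed the threshold without irradiated replicate 1 (0.0792).

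The rest of the plasminogen system had 7 genes higher and 4 lower of 12 tested, out of 18 (median 0.53). Plat, the tissue-type activator, rose from 132 and 149 to 747 and 651 counts, or from 4.95 ± 0.212 to 24.8 ± 0.404 CPM (SD, n = 2), a 5.0-fold rise (edgeR adjusted p = 1.61e-61). Per length, the irradiated libraries held 4.02 and 3.93 CPM per kb of Plat, against a mean of 1.36 for Plau. Serpini1, neuroserpin, an inhibitor of the tissue-type activator, rose 4.95-fold (28 and 11 to 93 and 100 counts; adjusted p = 4.42e-09), or 8.94-fold without unirradiated replicate 1. F3, tissue factor, which starts blood coagulation, rose 2.08-fold (adjusted p = 4.97e-07).

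Some surface proteins that bind plasminogen fell, as Plaur did. S100a10, a plasminogen receptor that pairs with annexin A2, fell 1.52-fold (899 ± 21.5 to 590.0 ± 1.45 CPM; SD, n = 2; edgeR adjusted p = 1.76e-115). Eno1, the glycolytic enzyme enolase that can also bind plasminogen at the surface, fell 1.47-fold (adjusted p = 4.51e-141), though it has a close retrotransposed copy that may take some of its reads. Chosen after their values were seen, Anxa2 fell 1.45-fold, while the uptake receptors Lrp1, which clears complexes of activators with their inhibitors, and Mrc2, a collagen receptor that associates with PLAUR, rose 1.20-fold and 1.75-fold. Plgrkt, another plasminogen receptor, did not pass (log2 fold change 0.14, adjusted p = 0.148).

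ADAM proteases, which shed proteins from the cell surface, had 6 genes higher and 1 lower of 9 tested (median 0.12), and 3 higher and 0 lower without irradiated replicate 2. Adamdec1, a secreted member, had 4 and 3 counts in unirradiated and 158 and 124 in irradiated libraries (ratio 40.5, exact 95% interval 19.4 to 102 for counting error). It passed the filter only through the irradiated libraries, so its call (edgeR adjusted p = 3.31e-30) adds no support beyond these counts. Adam8, which shares 46 exon bases with Gm16201 (822 against 132 counts), rose 1.63-fold and Adam10, a major sheddase, 1.34-fold (adjusted p = 2.77e-04 and 1.31e-21). Adam19, the member that fell (1.18-fold, adjusted p = 0.0112), missed the threshold without unirradiated replicate 1 (0.370), without irradiated replicate 2 (0.0577), and with upper-quartile factors or library totals alone. Without irradiated replicate 1, 2 genes of the list were lower.

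ADAMTS proteases, secreted enzymes that cut proteoglycans, procollagens and von Willebrand factor, had 6 genes higher and 2 lower of 12 tested, out of 19 (median 0.46). In that list 1 lower gene was left when unirradiated replicate 1, unirradiated replicate 2 or irradiated replicate 2 was left out. Adamts2, which trims procollagen, rose 2.23-fold (8.71 ± 1.30 to 19.4 ± 0.0149 CPM; SD, n = 2; edgeR adjusted p = 2.38e-17), and Adamts6 rose 4.08-fold (adjusted p = 1.67e-13). Adamts13, the enzyme that cuts von Willebrand factor, went from 1 and 6 to 91 and 56 counts. It too passed the filter only through the irradiated libraries, so its call (edgeR adjusted p = 2.45e-13) adds no support beyond these counts. Its fitted fold of 20.3 was 63.1 without unirradiated replicate 2 and 12.2 without unirradiated replicate 1. Adamts14, the near relative of Adamts2, fell 1.31-fold (adjusted p = 1.01e-03). Among 12 other serine proteases and inhibitors 3 could be tested and all 3 rose (median 0.40). The secreted proteases Htra1 and Htra3 rose 1.25-fold and 1.32-fold (edgeR adjusted p = 7.46e-21 and 2.32e-15). The other, Spint1, had no reads in the unirradiated libraries and passed the filter only through the irradiated ones.

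**Figure D4:**
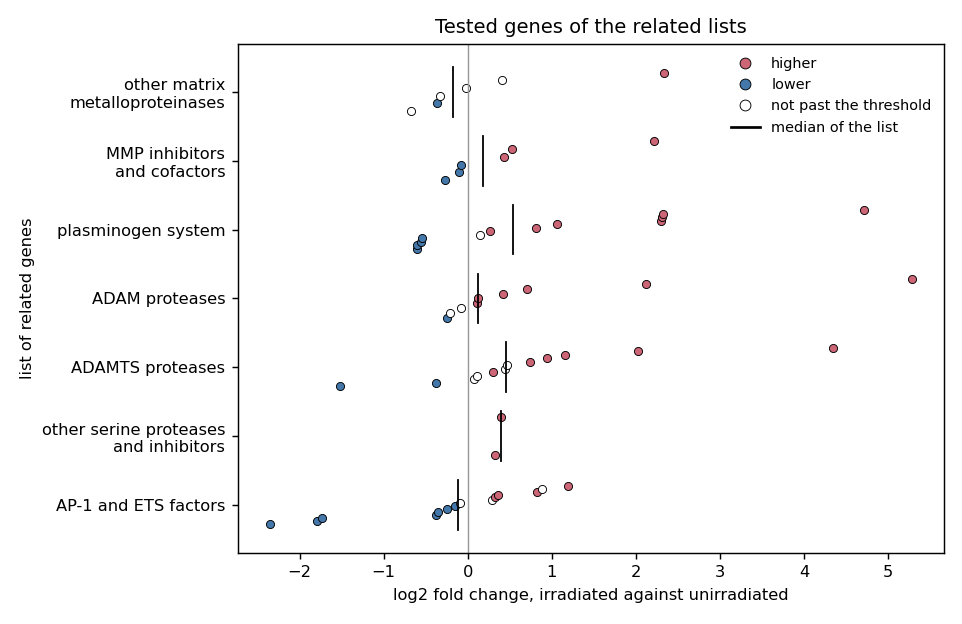
Log2 fold change (horizontal axis) of tested genes in the 7 related lists, red for genes that rose, blue for genes that fell, open for those that did not pass, and a line at each list's median. Spint1, at 0 counts in both unirradiated libraries, is left off because its fitted value depends on the prior count; the plasminogen system reaches from S100a10 at -0.61 to genes above 2.

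AP-1 and ETS factors are described in textbooks as binding the promoters of several protease genes and of Timp1. Of 16, 14 could be tested; 4 rose and 7 fell (median -0.12). The steepest falls were in Etv4 and Etv5, which belong to the PEA3 group, and in Fosl1, the AP-1 subunit FRA1. Etv5 went from 101 ± 0.881 to 30.5 ± 1.69 CPM and Fosl1 from 143 ± 6.40 to 41.1 ± 2.80 CPM (SD, n = 2), falls of 3.32-fold and 3.47-fold (edgeR adjusted p = 3.37e-167 and 1.48e-225). Etv4 went from 83.2 ± 3.58 to 16.3 ± 0.0873 CPM, a 5.11-fold fall (adjusted p = 1.96e-212). Other ETS factors were named after their values were seen. Etv1, also of the PEA3 group, did not pass (39.3 to 37.0 CPM, group means, edgeR adjusted p = 0.326). Ets2 rose 1.25-fold, whereas Ets1 and Elk3 fell 1.11-fold and 1.30-fold. Elf3 had too few reads to test. Fosl1 shares 1163 exon bases with Ccdc85b on the other strand, which had 5733 counts against 10381.

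Of the other AP-1 subunits Junb, Fosl2 and Fosb rose, Jun and Jund fell, and Fos and Atf3 did not pass. Jun, named after its value was seen, went from 365 ± 5.72 to 286 ± 13.3 CPM (SD, n = 2), a 1.27-fold fall (edgeR adjusted p = 5.98e-25), and Jund fell 1.19-fold (adjusted p = 6.29e-07). Junb was 2.29-fold higher (35.8 ± 2.68 to 82.0 ± 1.01 CPM; SD, n = 2; edgeR adjusted p = 4.02e-76), though 173 of its exon bases overlap Prdx2 on the other strand, a gene with more reads. Fosl2 rose 1.28-fold (adjusted p = 1.49e-14). Fosb rose 1.77-fold at adjusted p = 0.0224 but missed the threshold with DESeq2 (0.0571), without unirradiated replicate 1 (0.0865) and without irradiated replicate 2 (0.169). The part of these factors in the changes of Timp1, Plaur or the metalloproteinases was not tested.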

How the data were processed

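Bulk RNA-seq of 2 unirradiated and 2 irradiated MC38 libraries was used. The deposited table gives raw, unpooled whole-number counts of each library in its own column, by Ensembl gene. HISAT2, HISAT, HTSeq, DESeq2 and mm10 are named, per the submitters' processing notes, without versions or roles; for annotation release and strand setting, nothing is given in the sources used here. Groups and replicate numbers follow the titles, which match the column names; the description of unirradiated replicate 2 carries another number. Symbols, places and merged exon lengths are from GENCODE M21 (GRCm38, the build of mm10), which lacked 159 of the IDs.

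Counts were tested with edgeR 4.0.16 (R 4.3.3): filterByExpr, TMM, glmQLFit with robust estimation and glmQLFTest for irradiation alone, with Benjamini-Hochberg adjustment over 15298 genes (11263 left out). Standard errors are the absolute log2 fold change over the square root of F. Mean chi-square per gene between replicates was 3.38 (unirradiated) and 4.73 (irradiated), above the 1 of sampling noise, so no pair was merged as 1 library deposited again; this does not show that replicates are separate cultures. The pipeline was tested on simulated data.

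Members and lists were chosen with earlier results of these data known. Beyond the 9 members, the naming rule takes from each related list up to 3 genes that rose and 3 that fell most among called genes with a mean of at least 1 CPM, and the highest gene of each marker list; 1 gene so named is not reported here. Alternatives were RLE, upper-quartile and no scaling factors, DESeq2 1.42.0, no filter, the replicate block and leaving out each library. Promoter windows are RefSeq's (GRCm38.p6).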

Additional observations from a re-analysis of the deposited data

How the results depend on the processing

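Across 10 alternatives (RLE factors, upper-quartile factors, library totals alone, DESeq2, no filter on low counts, the replicate block, and leaving out each library), Timp1, Timp2, Mmp2, Mmp9, Mmp14, Plau and Plaur kept their direction and their call. Timp1 ranged from -1.66 to -1.55 on the log2 scale, Mmp2 from 0.93 to 1.04, Mmp14 from 0.66 to 0.79, Plaur from -1.39 to -1.30, Timp2 from 0.18 to 0.27, Mmp9 from 2.68 to 3.72 and Plau from 0.90 to 1.45. Plau had the highest adjusted p among these, 0.0301 without unirradiated replicate 2. Timp3 passed under 3 of the 10 settings, all of them scalings. Scaling by library totals alone or by upper-quartile factors moved the median of all genes by 0.06 and 0.07. With the replicate block 5 members were higher and 2 lower, as without it, and over all genes 4507 were higher and 4519 lower, against 4655 and 4634. Deviations of same-numbered libraries were not correlated (r = -0.01 over genes), so the numbers are not taken to pair the samples. Of 29 related genes named by rule, 25 kept their call under every alternative; Cd44, Cav1, Adam19 and Fosb did not. Counts in single lists moved by over 1.5 times as follows: other metalloproteinases that rose, 1 to 3 with DESeq2 or no filter; inhibitors and cofactors that fell, 3 to 1 under both scalings just named; ADAM genes that fell, 1 to 0 under the same scalings and to 2 with no filter; ADAMTS genes that fell, 2 to 1 with DESeq2 or no filter. Depth limits Mmp3, with 12 reads in all, and sets the error of Mmp9 and Plau in unirradiated cells, where they had 70 and 81.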

Other observations

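Several protease genes without a read in either unirradiated library had a few in the irradiated ones; they were chosen after their values were seen, and all those named here except Spint1 lay below the filter. Mmp10, stromelysin 2, had 7 and 8 counts, 5.03-fold higher if the unirradiated group as a whole is set to a floor of 3 counts. Mmp15, a membrane-type metalloproteinase, had 7 and 7 (4.70-fold). Adam23 had 10 and 16 (8.72-fold), and Serpinb2, which encodes the plasminogen activator inhibitor PAI-2, had 6 and 19 (8.39-fold). Spint1, an inhibitor of membrane-bound serine proteases, had 26 and 13, 13.1-fold higher at that floor. It passed the filter only through the irradiated libraries, so its call (edgeR adjusted p = 4.84e-06) adds no support beyond these counts. For counting error alone, the exact 95% lower limits of these ratios were 3.61 for Mmp10, 3.34 for Mmp15, 6.60 for Adam23, 6.33 for Serpinb2 and 10.1 for Spint1, below the values at the floor. Such traces were common in these libraries. Among all measured genes, 660 had 0 counts in both unirradiated libraries and at least 10 over the irradiated ones, and 40 genes showed the opposite pattern.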
